A study of Mus musculus with 6 samples.

Results

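The genes described here flank Reln, the mutated gene of the study, on mouse chromosome 5. They are Orc5, Slc26a5, Lhfpl3, Kmt2e, Srpk2, Pus7, Rint1, Dnajc2, Pmpcb and Napepld, chosen by position, and all 10 were found by symbol among the 24537 genes listed in every library. RNA-seq was done on cerebellum of male mice aged 6 weeks, with 3 wild-type libraries of the strain C57BL/6 and 3 libraries, of the strain Orl/BalbC, from carriers of 1 null copy of Reln. Values of a group are given below in the order of its replicates 1, 2 and 3. Genotype and strain label go together in every library, so an effect of the allele, of the whole strain background and of the chromosome segment carried with the allele cannot be told apart. Whether the 3 libraries of a group stand for 3 animals is not stated in the labels, and p-values then measure the spread between these libraries.

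Reln encodes reelin, an extracellular matrix glycoprotein that directs the layering of neurons and is made in the cerebellum by granule cells. A reeler allele called Orleans, written Orl, is known from a BALB/c stock; the strain label does not spell the term out. Sequence close to a mutation is inherited with it through backcrossing, so genes beside a mutated locus can carry variants of the donor strain. The flanking genes serve unrelated housekeeping and membrane functions, from DNA replication and RNA modification to mitochondrial protein import and lipid signalling. 4 of the 10 lie beyond the 3′ end of Reln (Slc26a5, Dnajc2, Pmpcb and Napepld, 18.9 to 183 kb from it), and 6 lie beyond its 5′ end (Orc5, Lhfpl3, Kmt2e, Srpk2, Pus7 and Rint1, 142 kb to 1.44 Mb from it).

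The start regions of Reln and of its closest neighbours are shown because these genes are the nearest of the set to the mutated locus on each side, and their levels are compared below. The sequences are RefSeq windows on GRCm38.p6, the mm10 assembly, of 300 bases each, from 250 bases before to 50 bases after the annotated start, 5′ to 3′ on the strand of the named gene. The last window starts from Psmc2, a proteasome gene, and also holds the start of Dnajc2, which runs the other way, 32 bases apart by GENCODE. Capitals mark 2 motifs, on both strands, that were chosen after the sequences were seen: CCGGAAG or its complement CTTCCGG, the core bound by ETS factors, and GGGCGG or its complement CCGCCC, the GC box bound by Sp1 and related factors.
Reln, chr5:22344656-22344955, minus strand: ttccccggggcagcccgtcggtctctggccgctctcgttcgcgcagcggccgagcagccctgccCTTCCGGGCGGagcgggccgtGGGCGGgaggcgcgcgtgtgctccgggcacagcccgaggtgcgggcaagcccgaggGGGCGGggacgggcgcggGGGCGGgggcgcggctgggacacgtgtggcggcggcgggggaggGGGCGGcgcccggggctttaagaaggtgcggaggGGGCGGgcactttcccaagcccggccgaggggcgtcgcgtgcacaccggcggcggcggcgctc
Orc5, chr5:22550289-22550588, minus strand: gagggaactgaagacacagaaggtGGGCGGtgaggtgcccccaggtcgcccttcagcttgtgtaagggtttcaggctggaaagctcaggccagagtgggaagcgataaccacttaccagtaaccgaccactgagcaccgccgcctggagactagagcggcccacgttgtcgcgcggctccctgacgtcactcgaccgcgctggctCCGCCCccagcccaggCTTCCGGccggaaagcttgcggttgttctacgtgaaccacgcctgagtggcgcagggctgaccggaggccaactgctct
Slc26a5, chr5:21865555-21865854, minus strand: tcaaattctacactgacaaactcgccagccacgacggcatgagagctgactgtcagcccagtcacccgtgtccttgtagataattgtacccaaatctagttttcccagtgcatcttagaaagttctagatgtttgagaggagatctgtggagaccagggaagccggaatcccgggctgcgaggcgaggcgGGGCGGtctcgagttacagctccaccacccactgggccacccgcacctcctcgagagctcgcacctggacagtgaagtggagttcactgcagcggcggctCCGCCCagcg
Pmpcb, chr5:21736910-21737209, plus strand: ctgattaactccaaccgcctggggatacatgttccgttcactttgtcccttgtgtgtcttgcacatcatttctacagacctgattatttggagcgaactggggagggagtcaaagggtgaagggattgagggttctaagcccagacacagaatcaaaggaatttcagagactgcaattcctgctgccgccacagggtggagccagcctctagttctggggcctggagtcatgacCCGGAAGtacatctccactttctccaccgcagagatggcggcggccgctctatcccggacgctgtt
Psmc2 and Dnajc2, chr5:21785025-21785324, plus strand: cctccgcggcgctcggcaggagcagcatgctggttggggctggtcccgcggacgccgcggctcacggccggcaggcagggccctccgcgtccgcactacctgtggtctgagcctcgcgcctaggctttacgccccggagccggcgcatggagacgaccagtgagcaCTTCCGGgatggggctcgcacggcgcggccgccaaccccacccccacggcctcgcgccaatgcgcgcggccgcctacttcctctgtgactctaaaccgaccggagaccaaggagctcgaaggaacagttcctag
In the Reln window a CTTCCGG and a GGGCGG overlap. The Reln window held 6 GC boxes and 47 CpG dinucleotides, a CpG number at or above that of 98.8% of the 32851 RefSeq windows, whose median was 7. The Orc5 window held 23 CpG, the Slc26a5 window 18, the Pmpcb window 11 and the window shared by Psmc2 and Dnajc2 37. Of all the windows, 8.86% held the ETS core and 35.7% a GC box. Windows were found for 8 of the 10 genes, 11 windows in all, of which 3 held the ETS core (Orc5, Lhfpl3 and Pmpcb) and 6 a GC box (Slc26a5, Orc5, Lhfpl3, Srpk2 and 2 of Pus7). These are matches of letters only.

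Reln (ENSMUSG00000042453, 21884454 to 22344702, minus strand) was the reference point for its neighbours. Gene positions are on chromosome 5 of GRCm38, from GENCODE M21. Levels are in FPKM, which scales fragments to the length of a gene and to the size of the library. In Fbxl13 and A930003O13Rik, low neighbours named after their values were seen, FPKM matched near whole numbers of reads over the gene span, introns included. Levels are therefore read as per length of that span. They can include intronic reads and need not follow mature mRNA. Reln had 0.834, 0.771 and 0.940 FPKM across the wild-type libraries, against 0.531, 0.509 and 0.580 across the heterozygous ones. All heterozygous libraries lay below all wild-type libraries, with a mean 36.4% lower. The exact permutation test, two-sided, gave p = 0.1, and with 3 libraries a side it cannot go lower. At a lower filter of 0.5 FPKM, which Reln passed, its limma adjusted p was 0.78, and it was 0.98 and 0.97 at 0.1 FPKM and with no filter. The unadjusted limma p of Reln at these filters was 0.00082, 0.0013 and 0.0029. At 0.5 FPKM, 230 of 8619 genes had an unadjusted limma p under 0.05. In whole tissue, fewer cells that make a transcript and less of it per cell cannot be told apart.

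The libraries differed in overall level, which touches every gene below. Approximate depth, read from the steps between low FPKM values, was 22900000 to 28700000 reads per library. Of 6358 genes averaging 1 FPKM or more, 78.4% had their lowest value in wild-type replicate 2 and 56.3% their highest in heterozygous replicate 2. Granule cell markers summed to 569 to 653 FPKM across wild-type and 613 to 640 across heterozygous libraries, and Purkinje cell markers to 170 to 241 and 222 to 231 FPKM. The 8 choroid plexus markers, of which 0 were under 0.05 FPKM in every library, summed to 1.37 to 289 FPKM across wild-type and 4.47 to 165 across heterozygous libraries. They were high in heterozygous replicate 2 and in wild-type replicates 1 and 3, and their part in the values of the flanking genes was not tested.

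None of the 10 flanking genes separated the groups. In every one of them, values of heterozygous and wild-type libraries overlapped, as they did in most genes: among 12226 genes averaging 0.1 FPKM or more, 5.88% had groups that did not overlap (4.61% with all heterozygous libraries higher, 1.27% with all lower). The filter of 1 FPKM on average for the test over all genes was passed by 3 of the 10 (Pmpcb, Srpk2 and Kmt2e), of which 0 passed an adjusted p of 0.05 in limma and 0 had an unadjusted p under 0.05. Over all 6358 genes tested, 0.0786% passed the adjusted threshold and 3.33% had an unadjusted p under 0.05. For the other 7 genes the exact permutation test, two-sided, on log2(FPKM + 1) gave p from 0.3 (Napepld) to 1 (Rint1).

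**Figure D1:**
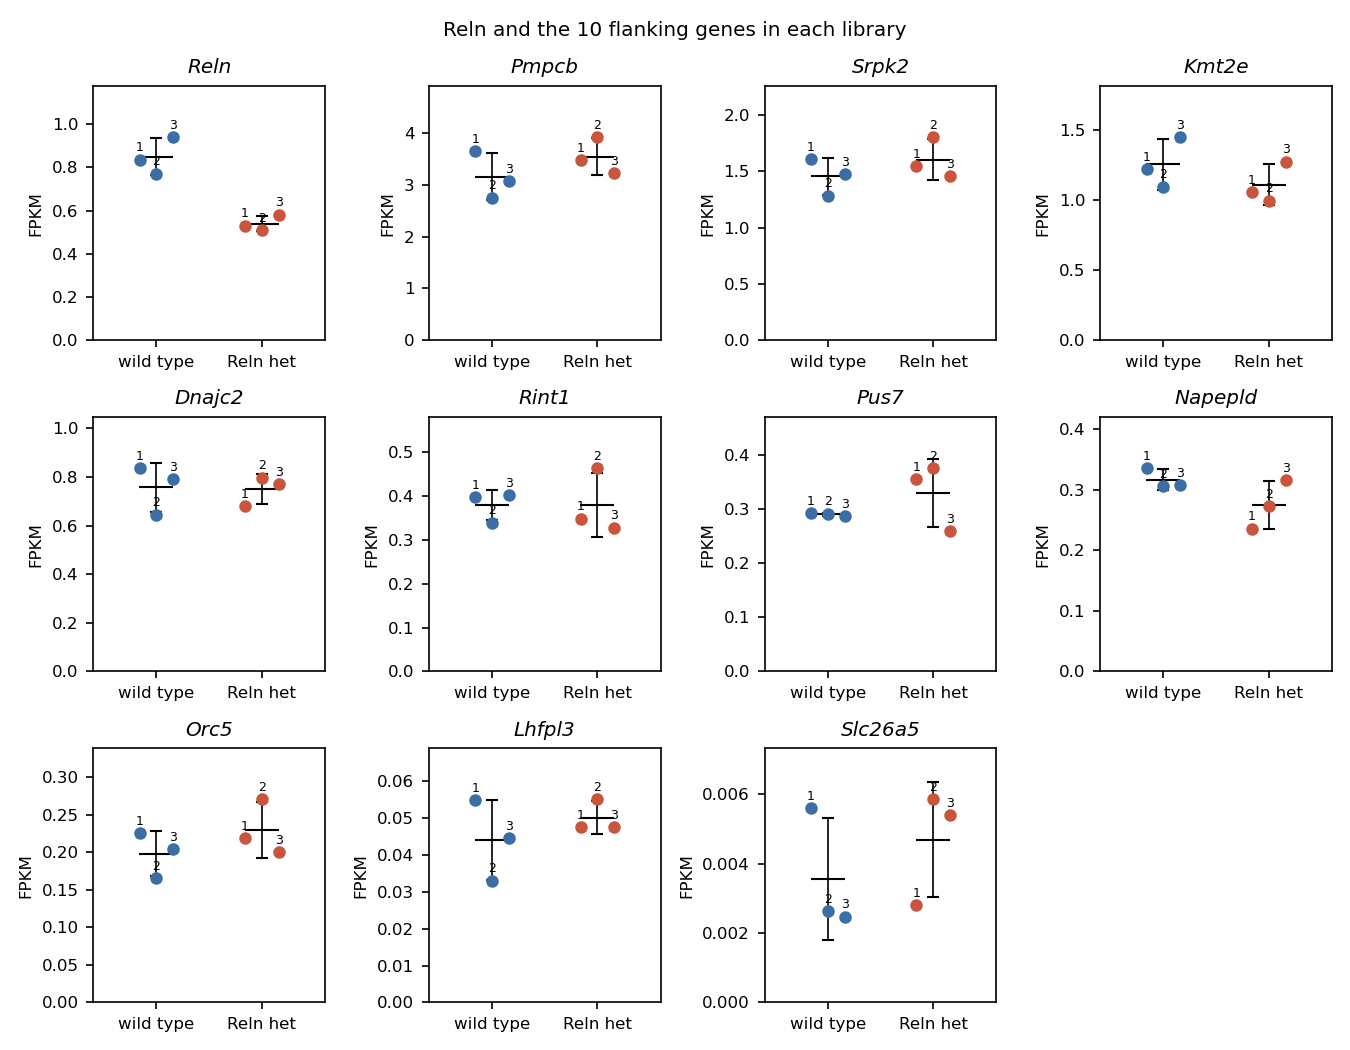
FPKM of Reln and the 10 flanking genes in each library (numbered points are replicates, bars are mean ± SD, n = 3 per group; each panel has its own axis from 0). Reln is lower in all heterozygous libraries, whereas the groups overlap in each flanking gene.

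Among the genes that act on DNA, chromatin and RNA, Kmt2e and Srpk2 had the highest FPKM. Kmt2e (ENSMUSG00000029004, 23434441 to 23504235, plus strand) encodes a chromatin protein with a PHD finger and a SET domain and is a risk gene for neurodevelopmental disorder. It had 1.22, 1.09 and 1.45 FPKM across the wild-type libraries, against 1.06, 0.995 and 1.27 across the heterozygous ones. Heterozygous replicates 1 and 2 were lowest, while heterozygous replicate 3 exceeded wild-type replicates 1 and 2. Heterozygous minus wild type, the difference of mean log2(FPKM + 1) was -0.10 (SE 0.092, 95% interval -0.28 to 0.088, limma adjusted p = 0.90). It was -0.035 without wild-type replicate 3, -0.058 without heterozygous replicate 2, and -0.15 without wild-type replicate 2 or heterozygous replicate 3. Srpk2 (ENSMUSG00000062604, 23503264 to 23684617, minus strand), a kinase of serine- and arginine-rich splicing factors, had 1.61, 1.28 and 1.47 FPKM across the wild-type libraries, against 1.54, 1.80 and 1.46 across the heterozygous ones. Its lowest value was in wild-type replicate 2 and its highest in heterozygous replicate 2, with the others between 1.46 and 1.61 FPKM. The log2 difference was 0.083 (SE 0.10, 95% interval -0.12 to 0.28, limma adjusted p = 0.90). Kmt2e and Srpk2 converge, and their annotated ends overlap by 972 bases. The library kit keeps strand but the strand setting of the authors' quantification is not stated in the labels, so reads in that overlap could be counted for either gene.

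Pus7 and Orc5, at lower levels, showed the same lack of separation. Pus7 (ENSMUSG00000057541, 23740648 to 23783711, minus strand) encodes a pseudouridine synthase that modifies tRNA and mRNA. It had 0.293, 0.291 and 0.287 FPKM across the wild-type libraries, against 0.355, 0.376 and 0.259 across the heterozygous ones, so the wild-type libraries lay close together between the heterozygous ones (exact permutation p = 0.4). Orc5 (ENSMUSG00000029012, 22486485 to 22550429, minus strand), a subunit of the origin recognition complex that licenses DNA replication, is the nearest gene of the set beyond the 5′ end of Reln. It had 0.226, 0.166 and 0.204 FPKM across the wild-type libraries, against 0.219, 0.271 and 0.200 across the heterozygous ones. Again wild-type replicate 2 was lowest and heterozygous replicate 2 highest (exact permutation p = 0.5). Orc5 starts 3 bases from the noncoding gene 6030443J06Rik on the other strand. That gene had only 0.031 to 0.099 FPKM over the 6 libraries. Its ratio of heterozygous to wild-type means was 0.588, and its groups also overlapped.

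Among the genes of protein handling, Pmpcb had the highest level of the set. Pmpcb (ENSMUSG00000029017, 21737141 to 21757152, plus strand) encodes the catalytic subunit of the mitochondrial processing peptidase, which removes import signals from proteins entering the matrix. It had 3.65, 2.75 and 3.07 FPKM across the wild-type libraries, against 3.48, 3.92 and 3.23 across the heterozygous ones. Wild-type replicate 1 lay above heterozygous replicates 1 and 3, and the means, 3.54 ± 0.35 FPKM for heterozygous and 3.16 ± 0.45 FPKM for wild-type libraries (SD, n = 3 each), differed by less than the SD of the wild-type libraries. The log2 difference was 0.13 (SE 0.13, 95% interval -0.12 to 0.38, limma adjusted p = 0.90), and it was -9.0e-05 without wild-type replicate 2 and heterozygous replicate 2.

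Dnajc2 and Rint1 had nearly equal means in both groups. Dnajc2 (ENSMUSG00000029014, 21757267 to 21785251, minus strand), a J-domain chaperone that works at the ribosome, had 0.837, 0.645 and 0.791 FPKM across the wild-type libraries, against 0.681, 0.796 and 0.771 across the heterozygous ones. Wild-type libraries held both the highest and the lowest value (exact permutation p = 0.9). Rint1 (ENSMUSG00000028999, 23787711 to 23820369, plus strand), a tethering factor in traffic between Golgi and endoplasmic reticulum, had 0.398, 0.340 and 0.402 FPKM across the wild-type libraries, against 0.348, 0.464 and 0.328 across the heterozygous ones. Here the heterozygous libraries held both extremes, and the means were 0.380 ± 0.035 and 0.380 ± 0.074 FPKM (SD, n = 3 each).

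Of the membrane and lipid genes, Napepld had the lowest ratio of the 8 flanking genes averaging 0.1 FPKM or more. Napepld (ENSMUSG00000044968, 21662901 to 21701396, minus strand) encodes a phospholipase D that releases N-acylethanolamines, lipid signals that include the endocannabinoid anandamide. It had 0.336, 0.306 and 0.307 FPKM across the wild-type libraries, against 0.236, 0.273 and 0.316 across the heterozygous ones. Heterozygous replicate 3 exceeded wild-type replicates 2 and 3, which was the only overlap between the groups. The mean ratio of heterozygous to wild type was 0.868 (exact permutation p = 0.3). 2 further genes averaged under 0.1 FPKM. Lhfpl3 (ENSMUSG00000106379, 22746059 to 23275597, plus strand), of a family of membrane proteins with 4 spans, ranged from 0.033 to 0.055 FPKM across wild-type and from 0.048 to 0.055 across heterozygous libraries. Slc26a5 (ENSMUSG00000029015, 21810655 to 21865604, minus strand) encodes prestin, the motor protein of cochlear outer hair cells, and is the nearest of the 10 genes to Reln, 18.9 kb from its 3′ end. Its FPKM values, 0.0025 to 0.0056 across wild-type and 0.0028 to 0.0059 across heterozygous libraries, were the lowest of the set. It was detected in every library, but on few reads.

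Levels, in FPKM and so per length, spanned the set from Pmpcb through Srpk2, Kmt2e, Dnajc2, Rint1, Pus7, Napepld, Orc5 and Lhfpl3 to Slc26a5. Ranges over the 6 libraries overlapped between Srpk2 and Kmt2e, between Rint1 and Pus7, between Pus7 and Napepld and between Napepld and Orc5; at each other step in that order the ranges did not overlap. Of the 3 tested genes, Kmt2e was lowest in heterozygous replicate 2, where Pmpcb and Srpk2 were highest. The mean profile of the 3 was lowest in wild-type replicate 2, as were 78.4% of all 6358 genes tested. Among the genes most like it, by the smallest root mean square difference of centred log2(FPKM + 1) over the 6 libraries over 6355 genes compared, were Grin1 (0.011, chromosome 2) and Ttc9 (0.012, chromosome 12). Grin1 had 7.09, 5.99 and 6.96 FPKM across the wild-type libraries, against 6.68, 7.09 and 6.76 across the heterozygous ones.

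Since 5 of the 10 genes were lowest in wild-type replicate 2 and 7 of 10 highest in heterozygous replicate 2, the libraries were also put on a common scale by median-of-ratios factors. These ranged from 0.838 (wild-type replicate 2) to 1.13 (heterozygous replicate 2). After scaling, Srpk2 stood at 1.48, 1.53 and 1.48 in wild-type and 1.55, 1.59 and 1.47 in heterozygous replicates 1, 2 and 3 (scaled FPKM), a ratio of means of 1.03 in place of 1.10. Pmpcb moved to 1.05 from 1.12, Orc5 to 1.09 from 1.16, Pus7 to 1.05 from 1.14, Rint1 to 0.930 from 1.00 and Dnajc2 to 0.929 from 0.989. The wild-type libraries of Pus7, close together as deposited, were spread after scaling, at 0.269, 0.348 and 0.288. The heterozygous ones stood at 0.358, 0.332 and 0.261. Kmt2e moved to 0.831 from 0.883 and Napepld to 0.811 from 0.868. The groups still overlapped in all 10 genes, where 10.3% of the 12226 genes had groups that did not overlap after scaling (5.56% higher, 4.71% lower). Reln moved to 0.597 from 0.636 and kept groups that did not overlap.

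A ratio taken within a library is free of that library's scale. Reln divided by Pmpcb was 0.229, 0.280 and 0.306 in wild-type and 0.153, 0.130 and 0.180 in heterozygous replicates 1, 2 and 3. Reln divided by Orc5 was 3.70, 4.65 and 4.62 in wild-type and 2.43, 1.88 and 2.90 in heterozygous replicates 1, 2 and 3. The heterozygous ratios were below the wild-type ratios in all libraries for each of the 8 flanking genes averaging 0.1 FPKM or more. The same was true of 88.6% of the 12225 other genes at that level, so the count is near its background and is no result about the neighbours.

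**Figure D2:**
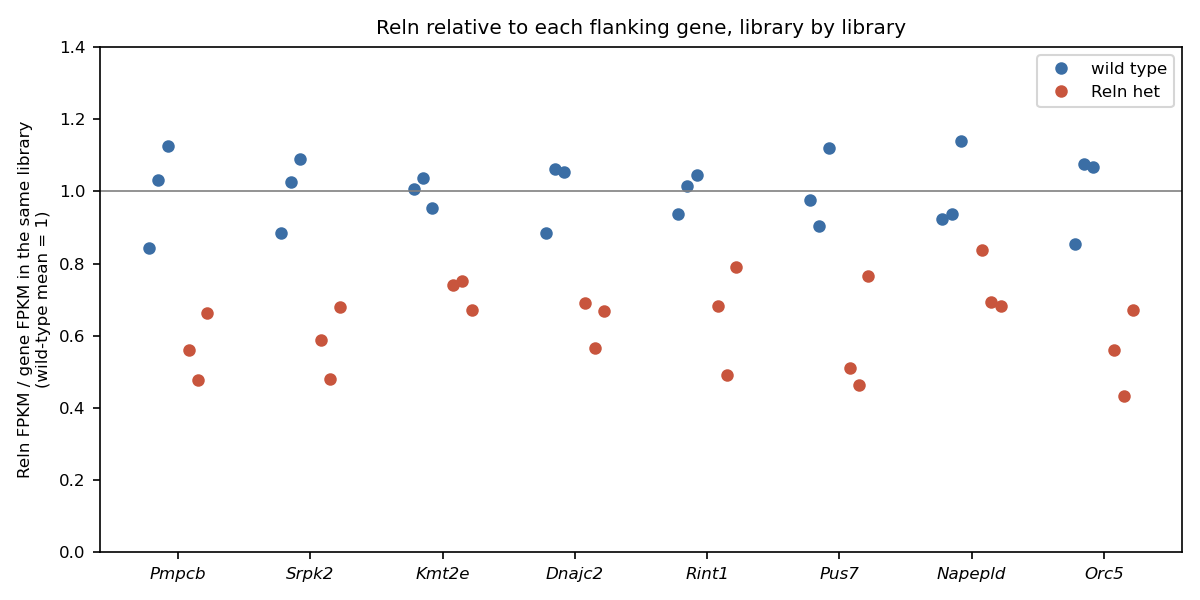
Reln FPKM divided by the FPKM of each of 8 flanking genes in the same library, on a linear axis where the wild-type mean of each gene is 1 (points are libraries, n = 3 per group). Heterozygous points lie below wild-type points for every gene, closest for Napepld.

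Next, all listed genes within 2 Mb of Reln were set beside genes farther away. Besides Reln the files listed 36 such genes, the 10 and 26 others, of which 25 averaged 0.1 FPKM or more and 8 averaged 1 FPKM or more. Of the 8, 0 passed in limma at an adjusted p of 0.05 and 1 had an unadjusted p under 0.05. That gene was Tmem60, which encodes a small transmembrane protein, at 2.20, 1.79 and 1.72 FPKM against 2.11, 3.03 and 2.28 in heterozygous libraries (log2 difference 0.25, SE 0.12, limma adjusted p = 0.90). The others besides the 3 of the set were Psmc2, a subunit gene of the proteasome cap (2.88 ± 0.30 against 3.41 ± 0.40 FPKM), Tomm7 of the mitochondrial import pore (7.40 ± 0.69 against 8.46 ± 0.49 FPKM), the ubiquitin ligase adaptor gene Klhl7 (1.17 ± 0.17 against 1.34 ± 0.10 FPKM) and the noncoding gene 5031425E22Rik (6.22 ± 0.41 against 6.46 ± 0.69 FPKM; wild type against heterozygous, SD, n = 3 each). Their limma adjusted p was 0.90, 0.90, 0.90 and 0.94, and their groups overlapped.

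Of the 25 genes, 2 had groups that did not overlap (8.0%, against 5.88% of all genes at that level), and both were named after their values were seen. Armc10, which encodes an armadillo-repeat protein, had 0.835, 0.717 and 0.783 FPKM across the wild-type libraries, against 0.901, 0.926 and 0.871 across the heterozygous ones. The antisense transcript A630072M18Rik had 0.802, 0.820 and 0.873 FPKM across the wild-type libraries, against 0.765, 0.621 and 0.727 across the heterozygous ones. It lies across the gene Rsbn1l on the other strand, so its reads may be shared with that gene. Both overlapped after median-of-ratios scaling, while Klhl7, at a scaled ratio of 1.08, then separated.

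**Figure D3:**
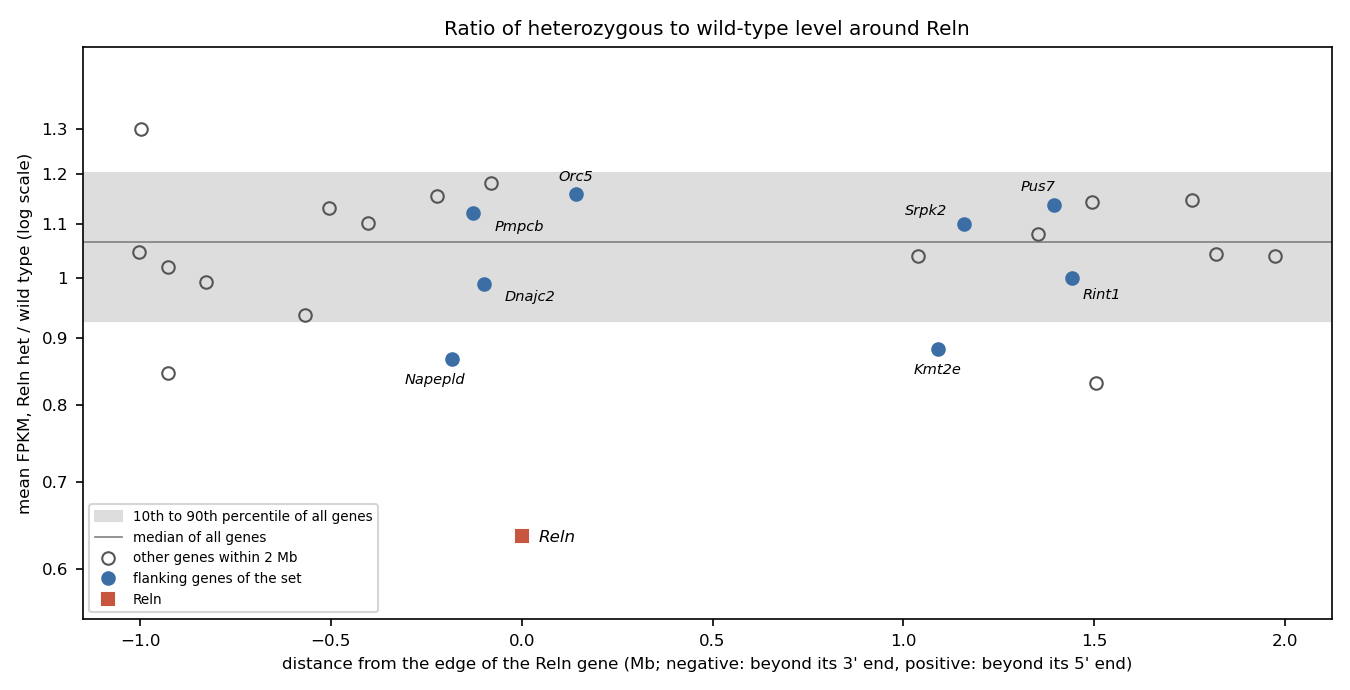
Ratio of mean FPKM, heterozygous to wild type, on a log axis against distance from the edge of the Reln gene for the 25 genes within 2 Mb averaging 0.1 FPKM or more, with Reln at 0. The band from 0.927 to 1.20 holds the 10th to 90th percentile of all genes. Reln, at 0.636, lies below every neighbour shown, the lowest of which is at 0.833. Neighbours averaging under 0.1 FPKM are not shown, and their ratios, where one could be taken, ran from 0.498 to 1.88.

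How the median within 2 Mb stood to that of other genes depended on the filter on low values. At 0.1 FPKM or more, the median ratio of heterozygous to wild-type FPKM was 1.05 within 2 Mb (25 genes), 1.06 over 2 to 10 Mb (76 genes), 1.06 on the rest of chromosome 5 (678 genes) and 1.07 on other chromosomes (11335 genes). The 8 flanking genes at that level had a median ratio of 1.05, and 5 of them had a higher mean in heterozygous libraries, beside 74.7% of all genes. On the log2(FPKM + 1) scale the median difference was 0.027 within 2 Mb and 0.040 over all genes. After median-of-ratios scaling the median ratio was 0.982 within 2 Mb, 0.979 for the 8 flanking genes and 1.00 over all genes. At 1 FPKM or more the order was the other way, with a median ratio of 1.13 within 2 Mb (8 genes) against 1.07 over 2 to 10 Mb (45 genes) and 1.08 over all 6358 genes. The median log2 differences were then 0.12, 0.065 and 0.083, and the scaled median ratios 1.06, 1.00 and 1.01. No gene on chromosome 5 passed the adjusted threshold in limma: 0 of the 376 tested there, with 11 at an unadjusted p under 0.05, against 5 of 6358 over all chromosomes.

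**Figure D4:**
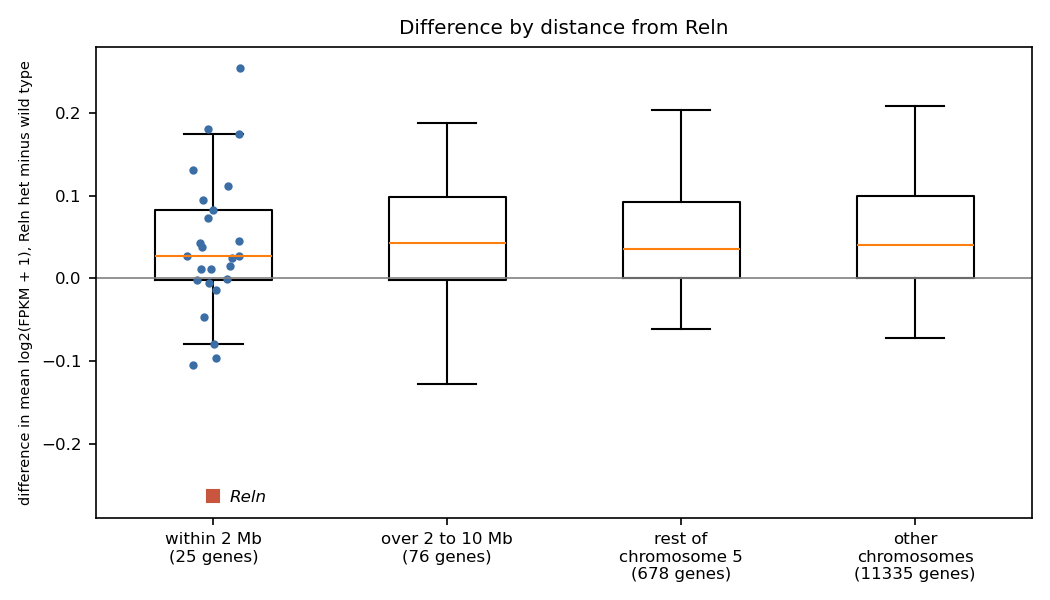
Heterozygous minus wild-type difference of mean log2(FPKM + 1), by distance from Reln, for genes averaging 0.1 FPKM or more (box: quartiles and median; whiskers: 5th to 95th percentile; blue points: the 25 genes within 2 Mb, which do not include Reln, the red square). The 4 medians lie between 0.027 and 0.043, and Reln at -0.26.

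Genes that share a function with a flanking gene were read from the same test. The 10 lists held 67 such genes, of which 29 averaged 1 FPKM or more; 0 passed in limma at an adjusted p of 0.05, 2 had an unadjusted p under 0.05, and their median log2 difference was 0.051, against 0.083 over all tested genes. Pmpca, which encodes the partner subunit of Pmpcb, averaged 7.56 ± 0.83 FPKM in the wild-type and 8.60 ± 0.90 FPKM in the heterozygous libraries (SD, n = 3 each), a ratio of 1.14 beside 1.12 for Pmpcb. After median-of-ratios scaling all heterozygous libraries were higher for Pmpca, at a ratio of 1.06, while the groups overlapped for Pmpcb. Kmt2d and Kmt2b, methyltransferases of the family of Kmt2e, had ratios of 0.784 and 0.904. Clk1, a kinase of splicing factors like Srpk2, had 8.32, 6.19 and 7.72 FPKM across the wild-type libraries, against 5.75, 5.45 and 5.67 across the heterozygous ones without overlap (log2 difference -0.34, SE 0.14, limma adjusted p = 0.90). Abhd4, which acts in N-acylethanolamine synthesis beside Napepld, did not overlap either, with all heterozygous libraries higher, at 3.84, 2.33 and 3.07 against 3.87, 4.24 and 4.25 FPKM (log2 difference 0.34, SE 0.13, limma adjusted p = 0.90). The cannabinoid receptor gene Cnr1 had 22.7, 22.2 and 22.7 FPKM against 23.4, 27.5 and 24.0, without overlap as deposited but with overlap after median-of-ratios scaling. Among the 29 genes, groups did not overlap in 4 (13.8%, against 5.55% of all tested genes): these 3 and Clk4 (ratio 0.917), which was named after its values were seen. After scaling they did not overlap in 5 (17.2%, against 11.2% of all tested genes), namely Abhd4, Clk1, Clk4, Pmpca and Naca. The highest or lowest-p genes of the other lists were Orc6 (ratio 1.12), Lhfpl4 (1.07), Pusl1 (1.17), Rpusd1 (1.08), Use1 (1.16), Btf3 (1.12) and Naca (1.16), with groups that overlapped as deposited; of the other Slc26 genes none averaged 1 FPKM.

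3 genes known for differences between C57BL/6 mice and other strains were read as a check of the strain labels. Gabra2, a GABA receptor subunit gene on chromosome 5 that is low in brain of the J substrain of C57BL/6, had 0.347, 0.246 and 0.287 FPKM across the wild-type libraries, against 0.328, 0.436 and 0.290 across the heterozygous ones. Nnt, a mitochondrial transhydrogenase gene with a deletion in the same substrain, had 0.407, 0.225 and 0.311 FPKM, against 0.326, 0.399 and 0.312. H2-Ea-ps, a class II gene that is silent in C57BL/6 and expressed in BALB/c, had 0.376, 0.138 and 0.273 FPKM, against 0.294, 0.288 and 0.233. Its mean was 0.262 FPKM in the libraries labelled C57BL/6, against 0.272 in the heterozygous ones. It was therefore not silent in the former, and the reason was not tested. The groups overlapped in all 3, so these levels did not separate the strain labels. The labels give no substrain for the wild-type mice.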

How the data were processed

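FPKM values, 1 library per file, were made by the authors: per the labels' protocols, mitochondrial and ribosomal sequences were removed, 2 bases trimmed, reads aligned to mm10 with TopHat2 and Bowtie 1, and genes quantified with Cufflinks. For the annotation release and the strand setting, the sources used here give nothing. The authors' Cuffdiff 2.1.1 test was not used. 40 unreadable values in heterozygous replicate 2 removed those genes from all tests; none was a flanking gene.

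Positions came from GENCODE M21 (GRCm38), in which 98.3% of 24537 genes had a unique match. Distances run from gene edge to gene edge. Genes averaging 1 FPKM or more were tested on log2(FPKM + 1), which understates changes of low genes, with limma 3.58.1 (R 4.3.3), an intensity trend and Benjamini-Hochberg adjustment over all 6358 genes at 0.05; the fit was tested on simulated data. Flanking genes below the filter had exact permutation tests (scipy 1.17.1). FPKM is not a count, so no count model was used. Read numbers per gene were not recovered, and no counting error is given.

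Named genes were Reln, the 10, other genes within 2 Mb at 1 FPKM or more, chromosome 5 calls, the most abundant and smallest-p gene of each function list, 3 strain genes and 3 genes of like profile; some results under this rule and the marker lists are not reported here. The members and lists were chosen with earlier results of these data known. Alternatives changed the pseudocount, filter, scaling, libraries and block.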

Additional observations from a re-analysis of the deposited data

How the results depend on the processing

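No gene tested within 2 Mb of Reln, flanking genes included, passed an adjusted p of 0.05 in limma under any of the 15 alternatives. Of the flanking genes, only Pmpcb, Srpk2 and Kmt2e were tested in all of them. Dnajc2 was tested only at the lower filters on mean FPKM. Orc5, Pus7, Rint1 and Napepld were tested only at 0.1 FPKM or with no filter, and Lhfpl3 and Slc26a5 only with no filter. The smallest limma adjusted p of a flanking gene was 0.36, for Pmpcb without wild-type replicate 1. For Pmpcb the alternatives ran from 0.36 to 1.00. The alternative without both replicates numbered 2 was chosen after seeing the data. Reln stayed lower throughout, from -0.57 (pseudocount 0.1) to -0.23. Kmt2e, Napepld and Pus7 kept their direction in all 15 alternatives but not their size: with 1 library left out the difference ran from -0.15 to -0.035 for Kmt2e, -0.070 to -0.025 for Napepld and 0.017 to 0.082 for Pus7. Leaving out libraries turned near-zero differences: Rint1 to 0.0088 without wild-type replicate 1, 0.011 without wild-type replicate 3, 0.015 without heterozygous replicate 1 and 0.027 without heterozygous replicate 3, and Dnajc2 to 0.027, 0.0086 and 0.023 without the first 3 of these. Without both replicates numbered 2, Orc5 turned to -0.0064, Lhfpl3 to -0.0030, Srpk2 to -0.023 and Pmpcb to -9.0e-05, and the median within 2 Mb from 0.027 to -0.023; the cause was not tested. That median was already below 0, at -0.0030, without wild-type replicate 2 alone, and at -0.0045 with median-of-ratios scaling. Over the alternatives that left out libraries, differences reached 0.055 for Orc5, 0.016 for Lhfpl3, 0.13 for Srpk2, 0.21 for Pmpcb, -0.065 for Rint1 and -0.072 for Dnajc2, and the median within 2 Mb 0.049. Over all genes the 5 calls became 0 at a minimum mean of 0.5 FPKM, with median-of-ratios scaling or with quantile normalization (230, 337 and 344 at an unadjusted p under 0.05), 1 at 0.1 FPKM or with no filter, 5 to 62 when 1 replicate was left out, 67 without both replicates numbered 2, and 13 with the replicate block, under which no flanking gene passed. Replicate numbers are not said to pair the libraries. Deviations of same-numbered libraries correlated at -0.28, -0.52 and 0.14 across genes, and those of different-numbered libraries at -0.39 to 0.49. Since libraries also differed in overall level, these values cannot decide whether the numbers pair animals. The share of tested genes whose mean log2(FPKM + 1) was higher in heterozygous libraries went from 83.1% to 57.1% with median-of-ratios scaling. Quantile normalization gave no value for Lhfpl3 and Slc26a5, which lie under 0.1 FPKM. Depth limits what can be said of Slc26a5, at 0.0025 to 0.0059 FPKM over the 6 libraries.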
